A study of Mus musculus with 13 samples.

Results

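The 9 genes Igfbp4, Tspan4, Hfe, Arhgap31, Rgcc, Poglut2, Fxyd5, Mcrip2 and Gnb1l were followed through every probe set that carries their symbol, 20 on one array type and 10 on the other, out of 18194 and 19938 genes with a single symbol. They were chosen by their measured values at 48 h, which were far lower in cells with wild-type Ikaros than in cells with the mutant 159A, so their 48 h values are given here as a description without a test. The tested question is whether they had already changed 2 h and 6 h after an inducible Ikaros was switched on. This was measured on separate arrays. The choice was by 48 h values, but earlier results of these data were known when it was made. It is therefore not shown to be free of the early values. All samples were B3 cells, a mouse pre-B cell line, transduced with retroviral (MSCV) vectors that also carry IRES-GFP. At 48 h after infection, cells with HA-tagged wild-type Ikaros (2 arrays) were set against cells with HA-159A Ikaros, a mutant deficient in DNA binding (2 arrays), on 430 2.0 arrays. For the early times, HA-Ikaros-ERt2 cells, in which Ikaros is fused to the hormone-binding domain of the estrogen receptor, were exposed to 4-hydroxytamoxifen for 2 h (3 arrays) or 6 h (3 arrays) and set against cells with the ERt2-IRES-GFP vector exposed for 6 h (3 arrays), on Gene 1.0 ST arrays. There was no vector group at 2 h or at 48 h and no Ikaros-ERt2 group without 4-hydroxytamoxifen, so a difference between the lines that existed before exposure cannot be told apart from an early response. For replicate 1 of the vector-ERt2 group, a characteristics entry names inducible Ikaros, while the title, used here, names the vector.

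Ikaros, encoded by Ikzf1, binds DNA through zinc fingers and acts on lymphoid genes partly through chromatin-remodelling and co-repressor complexes, and in pre-B cells it is known to limit proliferation and to favour differentiation. The 9 genes have different roles. They encode a secreted binding protein of insulin-like growth factors (Igfbp4), a membrane tetraspanin (Tspan4), a partner of the transferrin receptor in iron uptake (Hfe), a GTPase-activating protein for Rac and Cdc42 (Arhgap31), a regulator of the cell cycle kinase Cdk1 first known as a complement-response gene (Rgcc), an endoplasmic reticulum enzyme that adds glucose to EGF repeats (Poglut2), a regulator of the sodium pump (Fxyd5), a small protein related to a MAPK-regulated partner of the CtBP co-repressors (Mcrip2) and a WD-repeat protein with likeness to G protein beta subunits (Gnb1l).

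Promoter sequences from RefSeq on build GRCm38.p6, covering 250 bases before to 50 bases after a gene start, were matched by symbol for 8 of the 9 genes, all but Arhgap31. The 4 shown are those of Poglut2, Tspan4 and Mcrip2, the genes called lower at 6 h, and of Igfbp4, whose brightest probe set had the largest difference at 48 h, with no call at 2 h or 6 h. Capitals mark GGGAA, the core of the Ikaros binding motif, or TTCCC, the same letters on the other strand.
Poglut2, chr1:44118724-44119023, minus strand: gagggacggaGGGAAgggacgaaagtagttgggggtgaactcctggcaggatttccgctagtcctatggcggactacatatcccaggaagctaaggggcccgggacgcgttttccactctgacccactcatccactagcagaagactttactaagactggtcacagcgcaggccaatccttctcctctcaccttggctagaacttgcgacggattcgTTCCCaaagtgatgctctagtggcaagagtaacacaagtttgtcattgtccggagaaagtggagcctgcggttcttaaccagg
Tspan4, chr7:141474986-141475285, plus strand: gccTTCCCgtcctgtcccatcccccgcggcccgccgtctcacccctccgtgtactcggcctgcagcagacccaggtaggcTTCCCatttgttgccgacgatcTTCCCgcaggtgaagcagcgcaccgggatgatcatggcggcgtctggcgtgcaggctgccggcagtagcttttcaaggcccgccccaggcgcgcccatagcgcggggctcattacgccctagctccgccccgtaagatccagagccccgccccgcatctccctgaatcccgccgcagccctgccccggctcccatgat
Mcrip2, chr17:25868690-25868989, minus strand: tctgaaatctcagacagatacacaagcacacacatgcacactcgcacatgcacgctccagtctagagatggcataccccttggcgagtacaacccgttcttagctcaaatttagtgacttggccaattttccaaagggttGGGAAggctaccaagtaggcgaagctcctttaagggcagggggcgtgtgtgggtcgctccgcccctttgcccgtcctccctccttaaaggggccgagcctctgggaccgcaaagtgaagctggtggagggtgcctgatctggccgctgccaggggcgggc
Igfbp4, chr11:99040994-99041293, plus strand: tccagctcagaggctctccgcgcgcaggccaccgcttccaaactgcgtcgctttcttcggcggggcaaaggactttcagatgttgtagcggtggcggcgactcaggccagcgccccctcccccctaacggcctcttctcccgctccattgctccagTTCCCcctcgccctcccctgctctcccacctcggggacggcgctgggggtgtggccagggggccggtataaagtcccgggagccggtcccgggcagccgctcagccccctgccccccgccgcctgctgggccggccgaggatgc
Searched on both strands, GGGAA was found in a promoter of 6 of the 8 genes and in 62.7% of all 32851 promoters in the table. The longer TGGGAA, which contains it, was found for 5 of the 8 genes, against 25.6% of all promoters, and CACGTG, the E-box bound by Myc, for 1 of 8 (the second listed start of Tspan4), against 7.15%. Counts over genes take in both listed starts of Tspan4 and of Mcrip2, and the first listed start is printed. The shares over all promoters are per promoter and not per gene, so counts and shares are not like for like. Rgcc and Gnb1l had no GGGAA in this window. These are letter matches and not measured binding.

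The cells were checked against marker lists. Of 9 pre-B markers on the Gene 1.0 ST array, 8 lay above the median of all genes in each group, Rag1 being the exception, and all 9 did so on the 430 2.0 array. By limma calls (adjusted p under 0.05), 1 of the 8 pre-B markers tested early fell at 2 h (Vpreb1), against 1.1% of all tested genes. At 6 h 4 fell, against 3.2% of all. They were the surrogate light chain genes Vpreb1 (log2 change -1.17), Igll1 (-1.07) and Vpreb3 (-0.33) and the adaptor gene Blnk (-0.94). None was called higher at either time. All but Pax5 had every 2 h array below every vector array, as in 9.4% of all tested genes. At 6 h, uncalled, Ebf1 (0.32) and Cd79b (0.29) had every array above the vector arrays, and Cd79a (-0.17) every array below. At 48 h, 2 of 9 fell (Igll1 and Vpreb1) and 3 rose (Rag1, Cd79b and Pax5), against 8.47% and 6.38% of all tested genes. Between 6 h and 2 h in Ikaros-ERt2 cells, 2 of 8 fell (Igll1 and Vpreb1) and 2 rose (Ebf1, 0.57, and Cd79b, 0.44). Of all tested genes, 0.527% were called lower in that comparison and 0.376% higher. The part of these marker changes in the results below was not tested. No myeloid (of 6), natural killer (of 3) or erythroid (of 2) marker reached the median on Gene 1.0 ST, while 1 of 5 T cell and 2 of 4 fibroblast markers did. On 430 2.0, no T cell or fibroblast marker reached the median, while 1 of 2 natural killer and 1 of 2 erythroid markers did in both groups, and 1 of 6 myeloid markers did in 159A cells only. That one, Lyz2, averaged 2.65 in Ikaros cells and 4.39 in 159A cells with no overlap (limma adjusted p = 0.0672). At 48 h the mean of the natural killer marker Klrd1 was 9.43 in Ikaros cells and 5.12 in 159A cells (adjusted p = 0.0477), and the part of Lyz2 and Klrd1 in the results was likewise not tested. Ikzf1 stood between 13.22 and 13.40 on the 6 Ikaros-ERt2 arrays and between 9.16 and 9.39 on the 3 vector arrays. On 430 2.0 arrays the 2 Ikzf1 probe sets disagreed, with means of 12.04 in Ikaros cells against 11.71 in 159A cells for the brighter, and 4.44 against 12.78 for the other.

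At 48 h, the brightest probe set of each of the 9 genes was at least 4-fold lower in Ikaros cells than in 159A cells, as the choice of the genes requires. Over all 10916 genes tested on this array type, 5.22% were that much lower. The log2 differences ran from -8.41 for Igfbp4, the lowest of all tested genes, to -4.74 for Gnb1l, which ranked 38th. On this array the lowest log2 value was 2.19, and 36.7% of all values lay within 0.01 of it. A value below 3.19, which is 1 log2 unit above the lowest, is called near the floor here, and a fold against a group near the floor is given as a lower bound. By that limit and the mean of the brightest probe set, 6 of the 9 genes were near the floor in Ikaros cells. Poglut2 and Gnb1l were well above it, so that the name switched off does not describe them in that probe set. The second probe set of Poglut2 was near the floor, at 2.59 and 2.63. Mcrip2, at 3.34 and 3.33, lay just above the limit, as did an Ikaros array of Rgcc, at 3.24. Neither gene is clearly on either side of it. In bulk RNA, fewer cells with a transcript and less transcript per cell cannot be told apart.

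Igfbp4, which binds insulin-like growth factors outside the cell and restrains their access to the receptor, had 6 probe sets that did not all behave alike. The brightest read 2.49 on both Ikaros arrays, against 11.37 and 10.43 on the 159A arrays, at least 209-fold lower. The next read 2.19 and 2.19 in Ikaros cells and 9.27 and 8.06 in 159A cells, at least 44.4-fold lower. In these and the following pair, replicate 1 of 159A was the higher one. The pair whose names end in x_at, a suffix for probes that may bind other transcripts, read 3.41 and 2.72 against 7.52 and 4.35, and 2.19 and 2.19 against 7.28 and 5.05, in Ikaros against 159A cells. Another probe set read 3.62 and 3.85 in Ikaros cells and 4.68 and 3.98 in 159A cells, 1.51-fold lower, and the last sat at 2.19 on all 4 arrays. So 4 of the 6 were at least 4-fold lower, and the groups did not overlap in 5. With the mean of all its probe sets in place of the brightest, the difference of Igfbp4 was -3.72 and no longer the largest of the 9, which was then that of Tspan4 (-6.86).

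Tspan4, a tetraspanin of the cell surface known for its part in migrasome formation, read 2.43 and 2.63 in Ikaros cells and 9.42 and 9.36 in 159A cells, at least 73.3-fold lower. Hfe, a class I-like molecule that pairs with beta-2-microglobulin and takes part in sensing transferrin-bound iron, read 2.58 on both Ikaros arrays and 8.91 and 9.16 on the 159A arrays. Its second probe set read 2.79 and 2.90 in Ikaros cells, against 5.68 and 5.43 in 159A cells, at least 5.15-fold lower and so in the same direction. Arhgap31, which turns off Rac and Cdc42, read 2.22 and 2.25 in Ikaros cells and 8.39 and 8.27 in 159A cells. A second probe set of Arhgap31 read 2.94 on both Ikaros arrays, against 4.63 and 6.26 on the 159A arrays, while the other 2 were near the floor on all 4 arrays and carry no information on its direction. With the mean of the probe sets, the difference was -2.15 for Arhgap31, against -6.09 in the brightest, and -4.58 for Hfe, against -6.45. For each of these 3 genes, both arrays of a group agreed closely in the brightest probe set, and no array of Ikaros cells came near one of 159A cells. The Ikaros values were near the floor, so their agreement does not show how well such arrays repeat. On this array type, 44.5% to 45% of probe sets were exactly tied per pair of arrays.

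Rgcc read 2.72 and 3.24 in Ikaros cells and 9.57 and 9.28 in 159A cells, at least 73.9-fold lower. Its other probe set read 3.47 and 4.05 against 8.72 and 6.80, 16.02-fold lower in Ikaros cells, with a gap between the 159A arrays that the brighter probe set did not show. Poglut2 read 5.21 and 5.13 in Ikaros cells and 11.00 and 11.51 in 159A cells, 67.8-fold lower with both groups clear of the floor. Its second probe set read 2.59 and 2.63 in Ikaros cells and 7.06 and 7.31 in 159A cells, at least 15.9-fold lower. Both probe sets of Rgcc and of Poglut2 therefore had the same direction, and none of their groups overlapped. With the mean of both probe sets the difference was -5.22 for Rgcc and -5.33 for Poglut2, against -6.44 and -6.08 in the brightest.

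The remaining 3 genes had a single probe set each. Fxyd5, also called dysadherin, read 2.45 on both Ikaros arrays, against 7.41 and 7.31 in 159A cells, at least 17.9-fold lower. Mcrip2 read 3.34 and 3.33 in Ikaros cells and 8.28 and 8.24 in 159A cells, a measured 30.3-fold, with the Ikaros arrays just above the floor limit so that the size is not exact. Gnb1l, which in human cells takes part in the stability of the PI3K-related kinases such as ATM and ATR, read 6.14 and 6.01 in Ikaros cells and 10.79 and 10.84 in 159A cells, 26.8-fold lower. Over all 20 probe sets, 16 were at least 4-fold lower in Ikaros cells, and 3 were near the floor in both groups. In 17, every Ikaros array lay below every 159A array, in genes chosen for falls. Of all tested genes 30% did so, counted by the brightest probe set of each gene after low genes were left out. These shares are therefore not over like units.

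**Figure D1:**
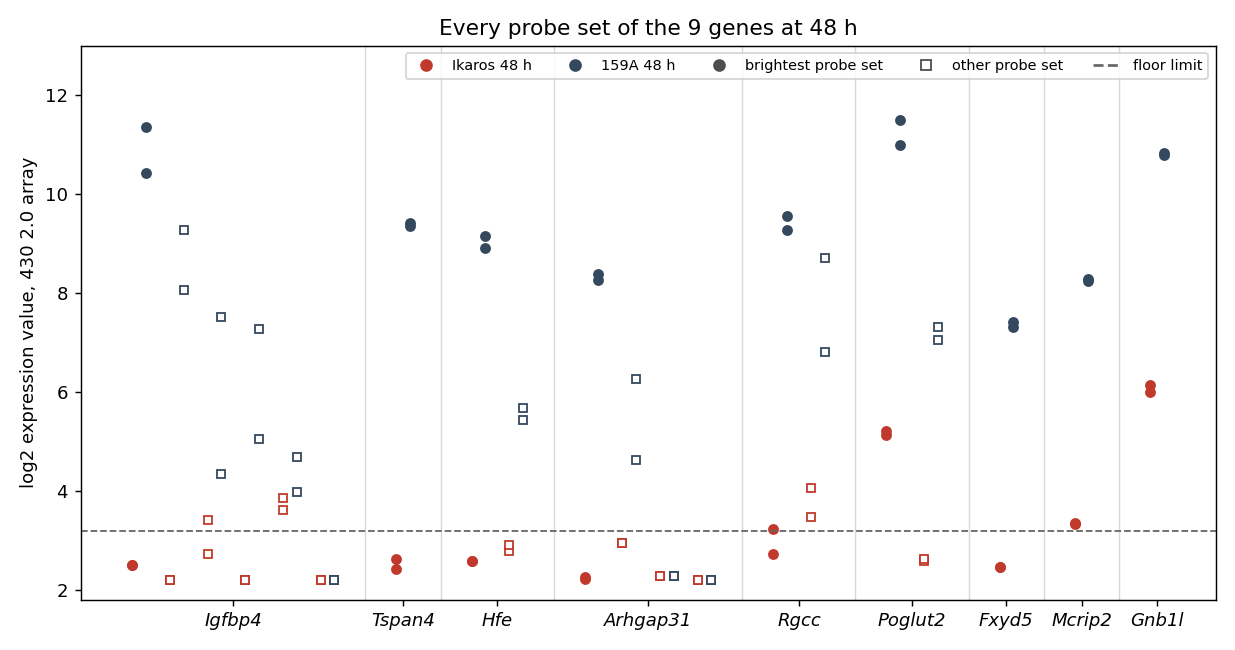
Log2 expression value (vertical axis) of every probe set of the 9 genes on the 2 Ikaros (red, left) and 2 159A (dark, right) arrays at 48 h; filled circles are the brightest probe set of a gene, open squares its other probe sets, and the dashed line is the floor limit of 3.19. In the brightest probe sets, Ikaros arrays lie under or close to the line for all genes but Poglut2 and Gnb1l, and 3 probe sets of Igfbp4 and Arhgap31 are near the floor in both groups.

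After 6 h of 4-hydroxytamoxifen, 3 of the 9 genes had fallen in Ikaros-ERt2 cells relative to the vector: Poglut2 by 2.05-fold, Tspan4 by 1.51-fold and Mcrip2 by 1.38-fold. Over all 11963 genes tested, 3.2% were called lower. None of the 9 was called higher at 6 h, where 2.58% of all genes were, and after 2 h limma called none of them in either direction (1 gene, Poglut2, had an unadjusted p under 0.05). Over all genes at 2 h, 1.86% were called, 1.1% lower and 0.769% higher. Of all 11963 tested genes, 1691 had an unadjusted limma p under 0.05 at 2 h. The calls are from limma over all 9 Gene 1.0 ST arrays, two-sided, at an adjusted p (Benjamini-Hochberg over all tested genes) under 0.05. Hfe lay among the lowest 40% of genes and was not in that test, and its values are from the same fit without the filter. Both early comparisons share the 3 vector arrays.

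Poglut2 stood at 5.89, 6.07 and 5.38 in Ikaros-ERt2 cells at 6 h and at 6.92, 6.83 and 6.70 in vector-ERt2 cells. Every 6 h array was below every vector array, and replicate 3 was the lowest. The log2 change was -1.04 ± 0.14 (SE, n = 3 each, limma adjusted p = 0.00193), which ranked 22nd among the falls of all tested genes. At 2 h the values were 6.37, 6.39 and 6.44, also below all vector arrays, as in 9.4% of all tested genes, and above all 6 h arrays. The 2 h change of -0.42 ± 0.14 was not called (limma adjusted p = 0.202), but it was called when limma was fitted on the 2 groups alone (adjusted p = 0.0421) or when Ikaros-ERt2 6 h replicate 3 was left out (adjusted p = 0.0271). Between the times, 6 h minus 2 h was -0.62 ± 0.14 (limma adjusted p = 0.0822), and without Ikaros-ERt2 6 h replicate 2 it was -0.76 (limma adjusted p = 0.0342).

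Tspan4 stood at 7.26, 7.08 and 7.38 in Ikaros-ERt2 cells at 6 h and at 7.98, 7.66 and 7.87 in vector-ERt2 cells, with no overlap. Its log2 change was -0.60 ± 0.10 (SE, n = 3 each, limma adjusted p = 0.00583). At 2 h it stood at 7.61, 7.74 and 7.61, where the groups overlapped and the change of -0.18 was not called (limma adjusted p = 0.463). Mcrip2 stood at 7.05, 7.05 and 7.23 in Ikaros-ERt2 cells at 6 h and at 7.55, 7.46 and 7.72 in vector-ERt2 cells, again with no overlap. Its log2 change was -0.47 ± 0.09 (SE, n = 3 each, limma adjusted p = 0.00998), and without Ikaros-ERt2 6 h replicate 1 it was -0.44 and no longer called (limma adjusted p = 0.0524). At 2 h Mcrip2 stood at 7.37, 7.51 and 7.37, and the change of -0.16 was not called (limma adjusted p = 0.453). In both genes, as in Poglut2, every 6 h array also lay below every 2 h array, a pattern of 6.91% of all tested genes. The differences of -0.41 for Tspan4 and -0.31 for Mcrip2 between the times were not called (limma adjusted p = 0.0912 and 0.139).

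Arhgap31 was tight at 6.28, 6.30 and 6.34 in Ikaros-ERt2 cells at 6 h and at 6.55, 6.59 and 6.55 in vector-ERt2 cells. The groups did not overlap, but the log2 change was only -0.25 and was not called (95% interval -0.49 to -0.02, limma adjusted p = 0.235). Its 2 h arrays spread more widely, at 6.48, 6.30 and 6.80, on both sides of the vector arrays. With Poglut2, Tspan4 and Mcrip2 it made 4 of 9 genes whose 6 h arrays all lay below the vector arrays, a pattern that 10.3% of all tested genes had.

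Igfbp4, with the largest difference at 48 h by brightest probe set, was at 5.73, 5.56 and 6.11 in Ikaros-ERt2 cells at 6 h and at 5.81, 5.88 and 5.83 in vector-ERt2 cells. Vector arrays lay inside the range of the 6 h arrays, and the change had a 95% interval of -0.33 to 0.24. At 2 h its values were 5.80, 5.83 and 6.12, with an interval of -0.21 to 0.36. On the early arrays Igfbp4 lay between the 49th and the 56.4th percentile of the named probe sets. At 48 h its brightest probe set stood at the 93.7th and 89.6th percentile on the 159A arrays. Whether the early probe set could show a fall of Igfbp4 was not tested, so its flat values do not show a lack of response. Hfe was dim, at 4.88, 4.51 and 4.68 in Ikaros-ERt2 cells at 6 h, against 4.62, 4.68 and 4.63 in vector-ERt2 cells, and at 5.03, 4.49 and 4.68 at 2 h. Its 6 h change of 0.05 had an interval of -0.25 to 0.34 in the fit without the filter. The Hfe values spanned the 25.1th to the 38.8th percentile of the named probe sets of their arrays.

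Rgcc stood at 7.43, 7.76 and 7.53 in Ikaros-ERt2 cells at 6 h and at 7.66, 7.84 and 7.41 in vector-ERt2 cells, and at 7.72, 7.79 and 7.60 at 2 h. All 3 groups overlapped, and the 6 h change had an interval of -0.32 to 0.19. Fxyd5 was the most variable of the 9 genes, at 7.07, 7.21 and 6.58 in Ikaros-ERt2 cells at 6 h and 7.07, 7.07 and 6.59 in vector-ERt2 cells, and at 7.32, 7.59 and 6.58 at 2 h. In each of the 3 groups replicate 3 was the lowest array. Its interval at 6 h, -0.49 to 0.58, was the widest of the 9.

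Gnb1l had 2 probe sets on Gene 1.0 ST, unlike the other 8 genes. The brighter stood at 8.06, 7.89 and 8.02 in Ikaros-ERt2 cells at 6 h and at 8.001, 8.02 and 8.11 in vector-ERt2 cells, and at 8.07, 8.004 and 8.02 at 2 h. The other stood at 7.16, 7.06 and 7.06 in Ikaros-ERt2 cells at 6 h and at 7.06, 6.95 and 7.11 in vector-ERt2 cells, and at 7.10, 7.06 and 6.92 at 2 h. Their 6 h changes had opposite signs, -0.057 and 0.050, and neither was called (limma adjusted p = 0.835 and 0.885 over all named probe sets). The interval of the brighter one at 6 h, -0.21 to 0.097, was the narrowest of the 9 genes. Over the 9 genes, the 6 h changes had a median of -0.067 and ran from -1.04 to 0.047, beside a median of -0.00016 over all tested genes.

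**Figure D2:**
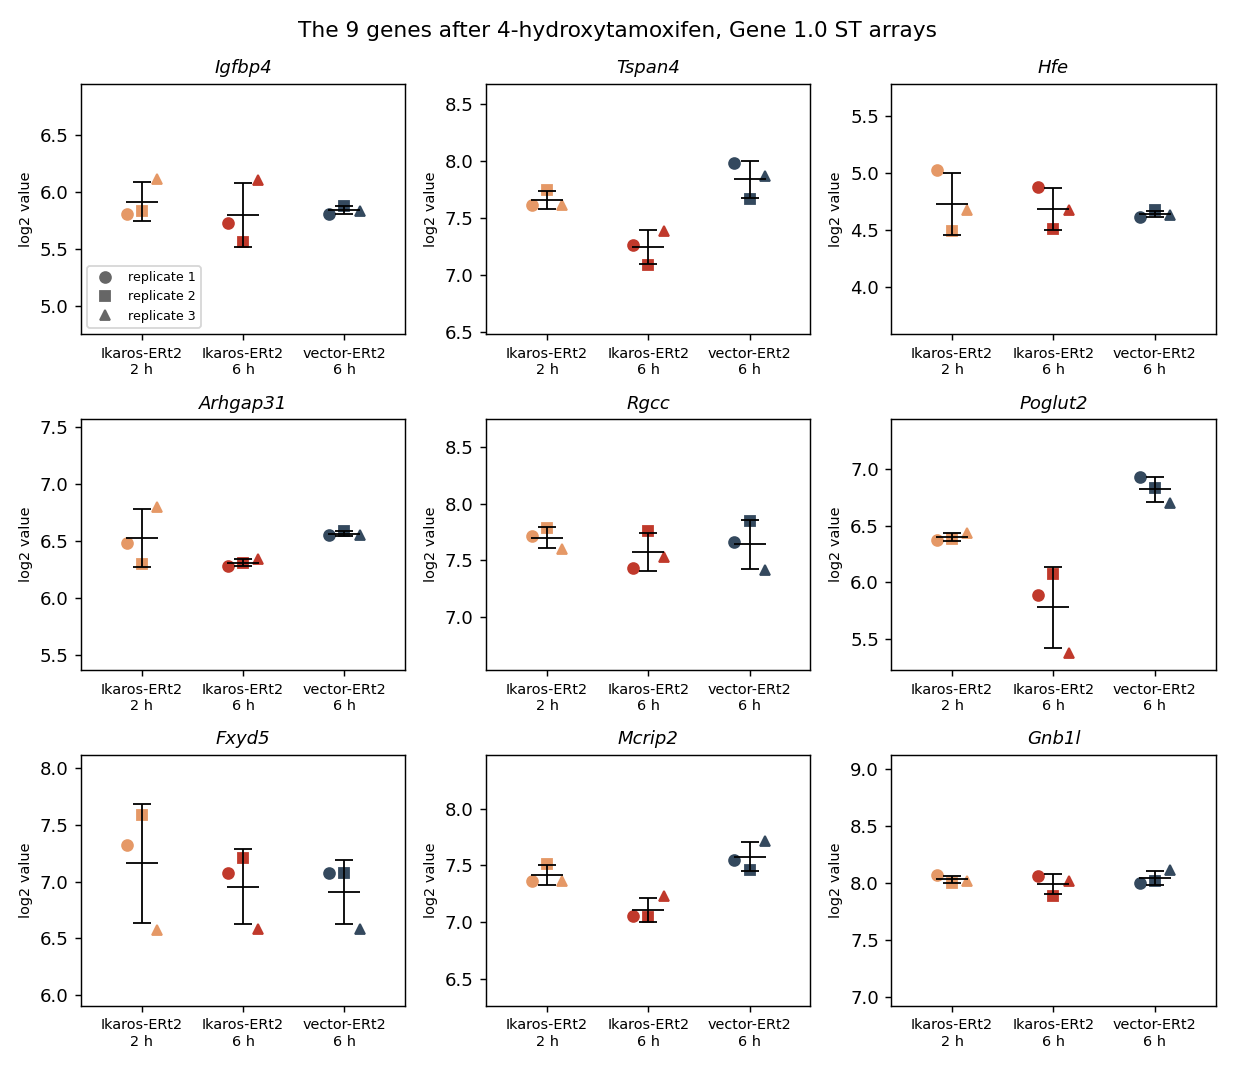
Log2 expression value (vertical axis, the same span in each panel) of the brightest probe set of each gene in Ikaros-ERt2 cells at 2 h, Ikaros-ERt2 cells at 6 h and vector-ERt2 cells at 6 h; symbols are replicates, and the black lines are the mean and SD (n = 3 each). Poglut2, Tspan4, Mcrip2 and Arhgap31 are the panels in which all 6 h arrays lie below all vector arrays, and replicate 3 (triangle) is lowest in all groups for Fxyd5.

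**Figure D3:**
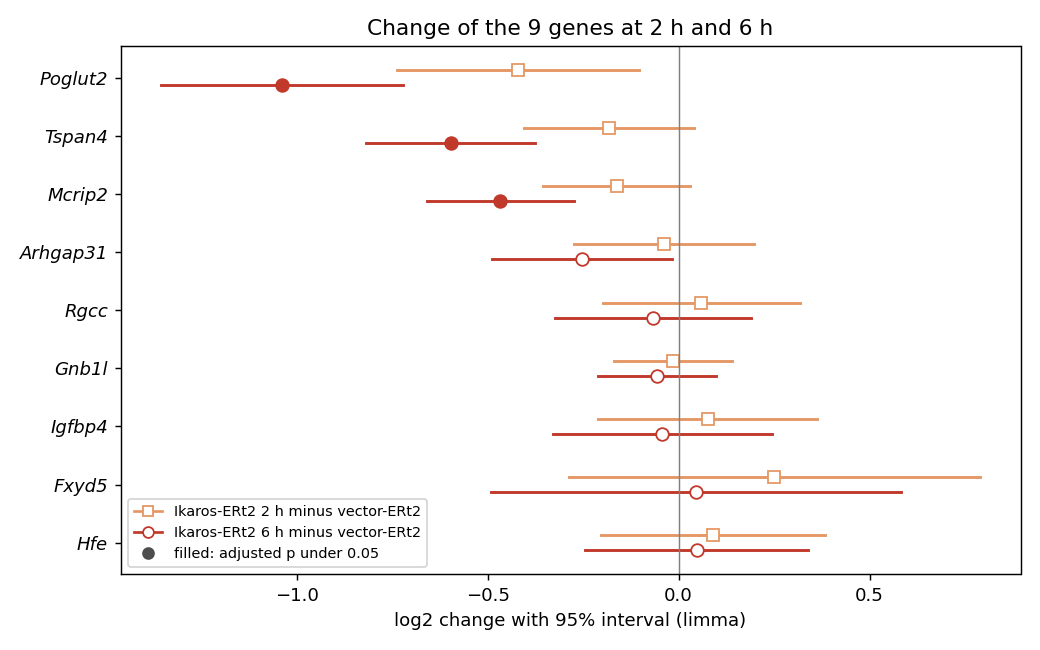
Log2 change of each gene with its 95% interval from limma (horizontal axis) at 2 h (squares) and 6 h (circles) in Ikaros-ERt2 cells over vector-ERt2 cells, ordered by the 6 h change; filled symbols have an adjusted p under 0.05. The filled symbols are those of Poglut2 (-1.04), Tspan4 (-0.60) and Mcrip2 (-0.47) at 6 h.

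The 3 of 9 called lower at 6 h can be set beside other genes with large differences at 48 h. Of 66 genes that were at least 16-fold lower at 48 h and tested on both array types, 8 of the 9 among them, 25 (37.9%) were called lower at 6 h, and 8 (12.1%) at 2 h. Among 519 genes at least 4-fold lower at 48 h, 120 (23.1%) were called lower at 6 h. Among all 9246 genes tested on both types, 350 (3.79%) were. The median 6 h change was -0.28 in the first class, -0.12 in the second and 0.0078 over all.

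**Figure D4:**
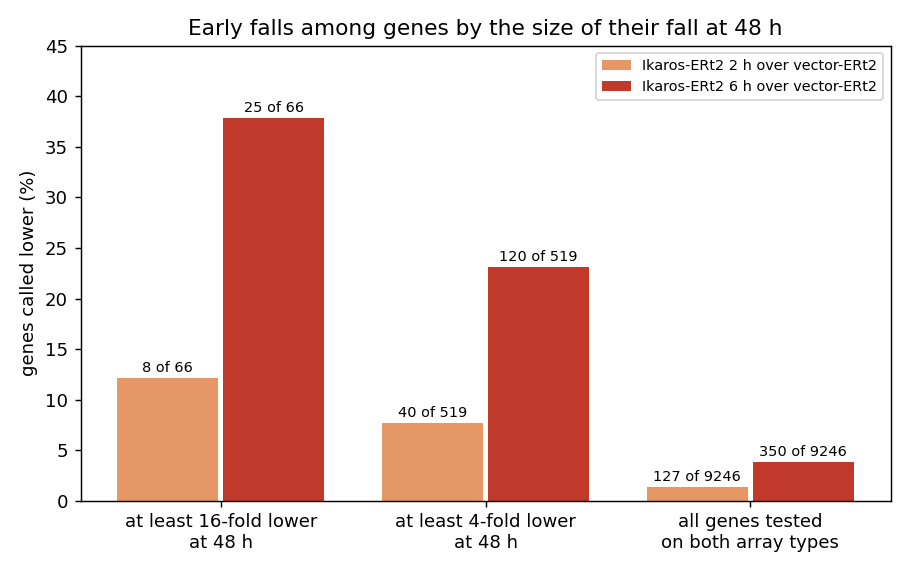
Percentage of genes called lower (vertical axis) at 2 h and at 6 h in Ikaros-ERt2 cells over vector-ERt2 cells, for genes at least 16-fold lower at 48 h, at least 4-fold lower at 48 h, and all genes tested on both array types. The share at 6 h is 37.9%, 23.1% and 3.79% in these classes, which are nested.

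Over the 9 Gene 1.0 ST arrays, the tested genes with the values most like those of Poglut2 were Gfi1b, a transcriptional repressor of blood cells (Pearson r = 0.986), Pik3ap1, an adaptor of B-cell receptor signalling (r = 0.984), and the ubiquitin-conjugating enzyme gene Ube2a (r = 0.984). For Tspan4 they were Wdr77 (r = 0.984), the calcium channel gene Cacna1b (r = 0.981) and the vitamin transporter gene Slc5a6 (r = 0.965). For Mcrip2 they were Nob1, a factor of small ribosomal subunit maturation (r = 0.988), Ydjc (r = 0.973) and the troponin gene Tnnt2 (r = 0.954). These are the highest correlations among all tested genes over 9 arrays in 3 groups, and they describe these arrays only. The 9 genes named here had negative changes at 6 h, from -0.30 for Slc5a6 to -0.90 for Pik3ap1. That sign largely follows from their selection by likeness, on the same arrays, to genes called lower at 6 h.

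Genes with related roles were then counted, leaving out the 9 themselves. Calls at 48 h rest on 2 arrays a group, and with any array left out limma called 0 genes there, against 1621 with all 4. In simulated data of the 48 h design, the fit recovered 0% of genes changed by a log2 value of 1 or 2. Far fewer genes were changed there than the 1621 called here, so that share does not carry over to these data. A gene of a list not called at 48 h is not shown to be unchanged. Counts at an unadjusted limma p under 0.05 are also given for the lists. Over all 11963 genes tested early, that count was 1691 at 2 h and 2130 at 6 h. At 48 h it was 3674 of 10916, so a few such genes in a list are no sign of change. Of the insulin-like growth factor list around Igfbp4 (ligands, receptors, binding proteins), 10 were tested early, and limma called none at 2 h or 6 h (1 had an unadjusted p under 0.05 at each time), with a median log2 change of -0.0083 at 6 h. At 48 h none of 9 was called (2 at an unadjusted p under 0.05), where limma called 14.8% of all genes, 8.47% lower and 6.38% higher. Of 14 other tetraspanins tested early, Cd81 rose at 2 h (log2 change 0.41, limma adjusted p = 0.0365) and Tspan31 fell at 6 h (-0.47, limma adjusted p = 0.00912), and the other 13 were not called at each time. At 6 h, 5.78% of all genes were called in either direction. At 48 h, of 16 tested, Cd53, a leukocyte tetraspanin, rose (log2 change 3.54) and Cd81 fell by 1.63, opposite to its early change. The median of the tetraspanin list was 0.058 at 6 h and 0 at 48 h, beside -0.00016 and 0 over all genes.

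Of 19 iron genes tested beside Hfe, Fbxl5, the iron-sensing subunit of a ubiquitin ligase, rose at 2 h, at 6 h and at 48 h (log2 change 0.71, 0.79 and 2.10). Ncoa4, the receptor for ferritin breakdown, rose at 2 h and at 48 h (0.41 and 1.54). Fbxl5 stood at 8.94, 9.12 and 8.58 in Ikaros-ERt2 cells at 6 h and at 8.19, 8.19 and 7.90 in vector-ERt2 cells, with no overlap. Steap3, an iron reductase of endosomes, fell at 6 h by 0.37. Tfr2 rose at 6 h (0.33) and B2m, the partner of Hfe, rose at 48 h (0.91), both named after their values were seen. In all, 2 rose and none fell at 2 h, 2 rose and 1 fell at 6 h, and 3 of 17 rose and none fell at 48 h. The list's median change was 0.040, -0.033 and 0.18 at these times.

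Of 27 genes of the Rac and Cdc42 branch and of other Arhgap proteins tested beside Arhgap31, the small GTPase gene Rhoq rose at 2 h and 6 h (log2 change 1.03 and 1.18) and Arhgap18 fell at both times (-0.57 and -0.76). Arhgap10 stood at 7.04, 7.60 and 7.47 in Ikaros-ERt2 cells at 6 h and at 8.34, 8.34 and 8.43 in vector-ERt2 cells. It fell at 6 h (log2 change -1.004 ± 0.13, n = 3 each, limma adjusted p = 0.00172), and Arhgap17, named after its value was seen, rose by 0.30. So 2 rose and 2 fell at 6 h, with a list median of -0.0012. At 48 h, 1 of 28 fell and 3 rose. Arhgap23 was near the floor in Ikaros cells (mean 2.32 in Ikaros cells, 6.44 in 159A cells), Arhgap25 rose (2.12), and Arhgap26 and Arhgap45, named after their values were seen, rose by 1.33 and 1.18.

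Of 13 enzymes and receptors of EGF-repeat glycosylation tested beside Poglut2, 2 fell at 6 h and none rose: Xxylt1, which adds xylose to the sugar chain begun by O-glucose (log2 change -0.55, limma adjusted p = 0.0234), and the fringe gene Lfng (-0.42, limma adjusted p = 0.0409). Xxylt1 stood at 6.94, 6.48 and 6.82 in Ikaros-ERt2 cells and at 7.19, 7.21 and 7.48 in vector-ERt2 cells, with no overlap. The list's median at 6 h was 0.029, and limma called none at 2 h (3 had an unadjusted p under 0.05). At 48 h, of 12 tested, Notch4 rose (1.48) and Notch1 fell by 1.14. Of 7 sodium pump and Fxyd genes tested beside Fxyd5, limma called none at 2 h or 6 h (1 at an unadjusted p under 0.05 at each time), and of 3 tested at 48 h the pump subunit gene Atp1b3 rose (1.18).

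Of 5 Mcrip partners, Zeb1, a repressor that works with CtBP, rose at 6 h (log2 change 0.39, limma adjusted p = 0.0173), and the RNA helicase gene Ddx6 rose at 48 h (0.51). Of 14 genes of G protein beta subunits and of the PI3K-related kinases with their TTT chaperone complex, tested beside Gnb1l, limma called none at 2 h (2 at an unadjusted p under 0.05) or 6 h (4), and none of 13 at 48 h (2). Of 4 Rgcc partners of mitotic entry and Akt signalling, limma called none at 2 h, 6 h or 48 h (2 at an unadjusted p under 0.05 each time), with medians of 0.16, 0.13 and -1.39. Between 6 h and 2 h in Ikaros-ERt2 cells, limma called none of the 9 genes and no gene of these lists. Of the 9, 3 had an unadjusted limma p under 0.05, as did 1629 of all 11963 tested genes. Over all genes 0.903% were called in that comparison, 0.527% lower and 0.376% higher. In its brightest probe set each of the 9 genes had a negative difference there (0.067 in the second probe set of Gnb1l), with a median of -0.20, beside 0.0088 over all genes.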

How the data were processed

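RNA of B3 cells was measured on 13 Affymetrix arrays, 4 of the 430 2.0 type and 9 of the Gene 1.0 ST type. The authors deposited 1 log2 value per probe set and array; per the submitters' processing notes GCRMA, RMA, affy and limma were used, with versions and the tool for each type not given in the sources used here. Exact ties between arrays occurred in 57% of 430 2.0 probe sets and in 52.2% of Gene 1.0 ST probe sets. On Gene 1.0 ST they were about as frequent within groups (5.17% to 7.21% per pair of arrays) as between them (4.41% to 7.65%). There, 6 of the 9 genes followed had a tie. Replicates 1 and 3 at 2 h were tied for Tspan4 (7.61) and for Mcrip2 (7.37), both called at 6 h. Ties can narrow an SD.

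Groups were taken from sample titles. The labels call the samples biological replicates without naming separate cultures, so the p-values cover variation among these samples only, which may be technical, and precision is limited by how few arrays there are. Each type was tested alone with limma 3.58.1 in R 4.3.3 (lmFit, eBayes), after the brightest probe set by mean was taken for each gene with 1 symbol in the platform annotation and the lowest 40% of genes were left out. In simulated data the fit recovered 98% to 100% of planted changes of log2 size 1 or 2 in the early comparisons and 0% at 48 h. Far fewer changes were planted than limma called at 48 h, so the 48 h share does not carry over to the data. Same-numbered arrays deviated together in all 3 pairs of Ikaros-ERt2 2 h with vector-ERt2 (r of deviations 0.119, 0.128 and 0.235). This is from the data and not from the labels. It did not hold in every pair of the other early comparisons (-0.258 to 0.244). Differently numbered early pairs ran from -0.252 to 0.339, so a pairing by number is not shown. The genes followed, the related lists and the tests were chosen with earlier results of these data known. Named list genes are, per comparison, the 2 called genes with the largest change. Alternatives were other filters, scalings and probe-set rules, other fits, a replicate block and each array left out.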

Additional observations from a re-analysis of the deposited data

How the results depend on the processing

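The calls of Poglut2 and Tspan4 at 6 h held under every alternative that tested them, with adjusted p of 0.00165 to 0.0175 and 0.00385 to 0.0351, and Mcrip2 held in 17 of 18. With a 60% filter on low genes Poglut2 was not tested, which left 2 of the 9 genes called at 6 h. When an array was left out, 2 to 3 were called at 6 h, 0 to 1 at 2 h and 0 to 1 between the times, and with only the 2 groups compared in the fit 1 was called at 2 h. With the replicate block, 3, 0 and 0 were called, as without it, and the adjusted p of Poglut2 at 2 h was 0.152. All 9 genes stayed at least 4-fold lower at 48 h under each alternative run. They were chosen for falls on these same arrays, so this gives no support. With the mean of probe sets Arhgap31 was at -2.15 and Igfbp4 at -3.72. Some uncalled changes crossed 0. Gnb1l was 0.0205 at 2 h with centred arrays and 0.0122 between the times with the mean of its probe sets. With an array left out, the 2 h changes ran from -0.18 to 0.077 for Arhgap31, -0.024 to 0.13 for Igfbp4, -0.054 to 0.16 for Rgcc and -0.036 to 0.020 for Gnb1l. The 6 h changes ran from -0.18 to 0.035 for Rgcc, -0.12 to 0.23 for Fxyd5 and -0.20 to 0.077 for Igfbp4. Between the times they ran from -0.50 to 0.0074 for Fxyd5, -0.27 to 0.0012 for Igfbp4 and -0.078 to 0.0062 for Gnb1l. The cause of these moves was not tested.

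Over all genes, the count called at 48 h was 1621, but 185 with no filter and 0 with the replicate block (which leaves 1 residual degree of freedom; same-numbered arrays had r = 0.572 and differently numbered ones -0.572) or with any array left out, so single 48 h calls of list genes rest on 4 arrays. With 2 arrays a group, the r values of 0.572 and -0.572 mirror each other by arithmetic. Their contrast is therefore no sign that same-numbered arrays go together. At 2 h the count called was 223, but 141 with no filter and 82 to 269 with an array left out. At 6 h it was 692, and 335 to 714 with an array left out. Between the times it was 108, but 59 with no filter, 61 with centred arrays, 0 with only the 2 groups compared and 9 to 149 with an array left out. Falls at 48 h that reach the floor have no exact size.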

Other observations

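Among the 66 genes at least 16-fold lower at 48 h and tested on both array types, a single one was called higher at 6 h, the cationic amino acid transporter gene Slc7a3, chosen after its values were seen. Its mean was 7.34 in Ikaros-ERt2 cells at 6 h and 6.61 in vector-ERt2 cells (log2 change 0.74 ± 0.19, n = 3 each, limma adjusted p = 0.0426). At 48 h its mean was 2.85 in Ikaros cells, near the floor, and 7.95 in 159A cells. The largest falls of this class at 6 h, apart from Poglut2, were those of the transporter gene Slc22a8 (-1.67), Inka1 (-1.14) and the surrogate light chain gene Igll1 (-1.07).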
